A study of Mus musculus with 13 samples.

Results

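The proteins that carry electrons along the inner mitochondrial membrane and make ATP are assembled from subunits encoded in 2 genomes. The genes described here are those subunits, as measured in liver RNA of WT and Nod2-/- males. They were chosen by name and not by their values, as the protein-coding genes of complex I (Nduf a, b, c, s and v genes, without the assembly factors), complex II (Sdha to Sdhd), complex III (Uqcr genes and Cyc1), complex IV (Cox4 to Cox8) and complex V (Atp5 genes), together with the protein genes of the mitochondrial chromosome. There were 99 such genes among the 53465 genes counted, 86 nuclear and 13 mitochondrial. Complex I gave 45, complex II 4, complex III 10, complex IV 21 and complex V 19.

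The study asked whether loss of Nod2, an intracellular sensor of bacterial peptidoglycan, changes the liver of mice given the carcinogen DMBA as pups and then kept on a high-fat diet. One liver library per mouse was sequenced from 6 WT mice and 7 Nod2-/- mice, all on the inbred BALB/c background. They were aged 30 weeks by the labels, which give cancer as the disease state of both groups. The study reports liver tumors in a larger share of Nod2-/- than of WT males so treated, and greater weight gain. Genotype, tumor burden and body weight therefore cannot be told apart here. The deletion was present in the whole body, WT and Nod2-/- mice came from separate breeding pairs in the same room and were not littermates, and only mice given both DMBA and the diet are analysed here. The genotypes could not be checked on the transcript, since Nod2 had 0 to 4 counts in WT and 1 to 6 in Nod2-/- mice.

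Electrons from NADH enter at complex I and those from succinate at complex II. Ubiquinone carries them to complex III, cytochrome c carries them on to complex IV, and complex IV passes them to oxygen. Complexes I, III and IV pump protons across the membrane, and complex V, the ATP synthase, lets the protons back and makes ATP. The mitochondrial chromosome encodes core subunits of complexes I, III, IV and V, and none of complex II. All other subunits are made in the cytosol from nuclear genes and imported. Hepatocytes are rich in mitochondria.

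The libraries held 14886273 to 20579984 counts (WT) and 13824780 to 19391431 counts (Nod2-/-). The 8 hepatocyte markers together gave 73100 to 105000 CPM (counts scaled to a common library total) in WT and 77100 to 168000 in Nod2-/- mice, so every library carried the labelled tissue's transcripts. The libraries were not uniform in other cells. The 6 neutrophil markers summed to 916 CPM in Nod2-/- replicate 7 and to 3.83 to 35.7 in the other Nod2-/- mice, against 2.64 to 5.73 in WT mice. On this sum 6 of the 7 Nod2-/- mice lay above every WT mouse. The part of these markers in the subunit values was not tested. The 5 biliary and progenitor markers summed to 35.6 to 216 in WT and to 107 to 402 in Nod2-/- mice, and 1 of them was called. The 4 lung epithelium markers went the other way, at 12.5 to 173 in WT and 1.91 to 27.0 in Nod2-/- mice, and 0 of them were called. In whole liver, fewer cells of a type and less RNA per cell cannot be told apart.

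No subunit gene passed a 5% false discovery rate. Of the 93 members that edgeR's filter on low counts kept, 0 were called lower and 0 higher in Nod2-/- mice (edgeR, quasi-likelihood F test, Benjamini-Hochberg adjusted p over all 13545 tested genes). Among all tested genes 0.509% were called lower and 0.65% higher. At an unadjusted p under 0.05 there were 10 members lower, or 10.8% of them, and 0 higher. The shares of all tested genes at that level were 10.2% lower and 12.9% higher, so the lower share of the subunits was close to the background. No member had all Nod2-/- mice below all WT mice, a pattern held by 0.687% of tested genes.

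Small differences nevertheless lay mostly on one side. The fitted log2 fold change (Nod2-/- minus WT) was below 0 in 78 of 93 members, or 83.9%, against 47.7% of all tested genes. The median was -0.12 over the members and 0.02 over all tested genes. The 80 nuclear members tested had a median of -0.10 with 67 below 0, and the 13 mitochondrial members a median of -0.30 with 11 below 0. The fitted change was smaller than 0.5 in either direction in 92 of the 93. The medians of the complexes moved with single mice, and at the extremes complex I went from -0.10 to -0.04 without WT replicate 2 and to -0.19 without WT replicate 3, and complex V from -0.09 to -0.02 and -0.18. As a later paragraph shows, the levels of the subunit genes deviated together in each mouse, so the members are not separate observations of the genotype, and no test was made over the list.

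**Figure D1:**
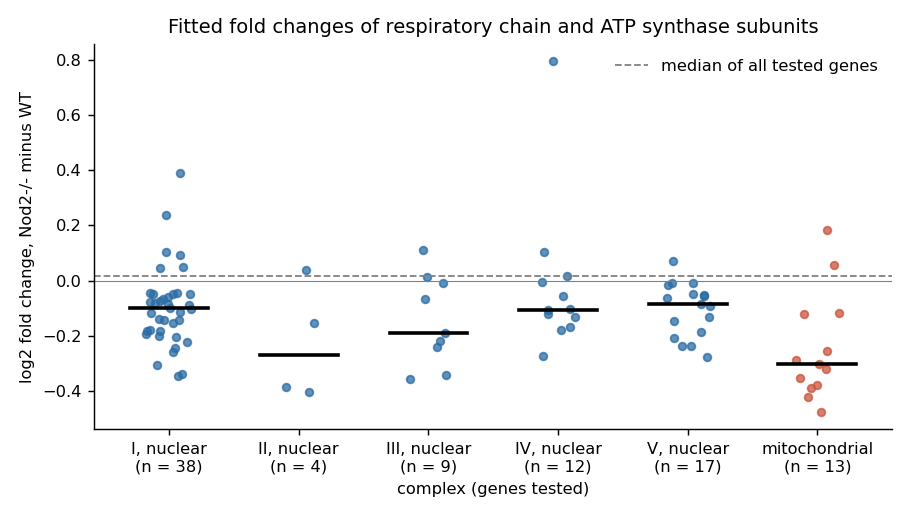
Fitted log2 fold change (y axis, Nod2-/- minus WT) of each tested subunit gene, in columns for the nuclear members of complexes I to V (blue) and the mitochondrially encoded members (red). Black bars are medians and the dashed line is the median of all tested genes, 0.02. The medians of the columns run from -0.09 in complex V to -0.30 in the mitochondrial members.

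Complex I, the NADH entry point, had 38 nuclear members and all were tested. Of these 32 lay below 0, with a median log2 fold change of -0.10. The 7 nuclear core subunits, which hold the flavin and iron-sulfur clusters or frame the quinone site, were all below 0 with a median of -0.14. The 31 accessory subunits had a median of -0.10, with 25 below 0.

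The member with the lowest p was Ndufa10 (ENSMUSG00000026260.12, chromosome 1, 92439010 to 92473860 of GRCm38), an accessory subunit of complex I. Its normalized counts, in which each mouse's counts are scaled to one common effective library size, were 1922 at the lowest, 2130 at the median and 2411 at the highest of the 6 WT mice. In the 7 Nod2-/- mice they were 1560, 1719 and 2017. All Nod2-/- mice lay below the WT median, and the groups overlapped, since WT replicate 3 at 1922 was below Nod2-/- replicate 5 at 2017. The log2 fold change was -0.31 ± 0.086 (SE), with an edgeR adjusted p of 0.0723 and a two-sided exact permutation p of 0.00291 for this gene alone. Ndufa10 was singled out after its values were seen.

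Ndufs1, the largest core subunit and the holder of several iron-sulfur clusters, had 2285, 2905 and 3523 normalized counts at the lowest, median and highest WT mouse. Nod2-/- mice had 1891, 2326 and 2788, all below the WT median. Its log2 fold change was -0.34 ± 0.117 (SE; edgeR adjusted p = 0.117). Ndufv1, which binds NADH, had a log2 fold change of -0.24 ± 0.124 (edgeR adjusted p = 0.253). Among accessory subunits Ndufb3 and Ndufa9 also had an unadjusted p under 0.05, with log2 fold changes of -0.35 and -0.26 and edgeR adjusted p of 0.190 and 0.196. They were named after their values were seen.

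At the upper end of complex I, below only the low-count Ndufa4l2 described later, stood Ndufa2, a small accessory subunit. It had 1104, 1863 and 2229 normalized counts at the lowest, median and highest WT mouse and 1242, 2448 and 2731 in Nod2-/- mice. Its log2 fold change was 0.24 ± 0.196 (SE; edgeR adjusted p = 0.482), and the groups overlapped over most of their range. Ndufb7 was the only member within 10 Mb of Nod2 on chromosome 8, where a knockout line can carry DNA of the strain it was made in. It had a log2 fold change of 0.05 ± 0.144 (edgeR adjusted p = 0.874).

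Complex II, succinate dehydrogenase, is also an enzyme of the TCA cycle and has no mitochondrially encoded subunit. Its 4 members had a median log2 fold change of -0.27 and 3 lay below 0. Sdha, the flavoprotein that oxidizes succinate, had 8177, 9942 and 11680 normalized counts at the lowest, median and highest WT mouse. Nod2-/- mice had 5269, 8010 and 9005. The lowest 2 mice were Nod2-/- replicates 4 and 7, at 5269 and 5994, and the Nod2-/- range reached past the lowest WT mice. Its log2 fold change was -0.41 ± 0.140 (SE; edgeR adjusted p = 0.115), the lowest of the nuclear members.

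Sdhb, the iron-sulfur subunit, had 3283, 4313 and 5633 normalized counts at the lowest, median and highest WT mouse and 2489, 3557 and 3901 in Nod2-/- mice. All Nod2-/- mice were below the WT median, and WT replicate 3 lay within their range. The log2 fold change was -0.39 ± 0.136 (SE; edgeR adjusted p = 0.122). The membrane anchors did not share this size of difference, with log2 fold changes of -0.15 ± 0.116 for Sdhc and 0.04 ± 0.133 for Sdhd (edgeR adjusted p 0.433 and 0.892).

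Complex III, which oxidizes ubiquinol, had 9 nuclear members with a median log2 fold change of -0.19, and 7 lay below 0. Uqcrc1, a core protein of the complex, had 3541, 4669 and 5375 normalized counts at the lowest, median and highest WT mouse. Nod2-/- mice had 3068, 3879 and 4300, again all below the WT median and overlapping WT through replicate 3. Its log2 fold change was -0.34 ± 0.117 (SE; edgeR adjusted p = 0.113), and that of Uqcrc2, its partner, was -0.36 ± 0.124 (adjusted p = 0.117). Uqcrc2 was named after its values were seen. The catalytic subunits Uqcrfs1, the Rieske iron-sulfur protein, and Cyc1, cytochrome c1, had log2 fold changes of -0.19 ± 0.129 and -0.24 ± 0.142 (edgeR adjusted p 0.391 and 0.322). Of the small subunits, Uqcrh and Uqcrq lay at 0.11 ± 0.172 and 0.01 ± 0.178. Uqcrb, Uqcr11 and Uqcr10 lay below 0, at -0.22 ± 0.135, -0.07 ± 0.169 and -0.01 ± 0.188.

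**Figure D2:**
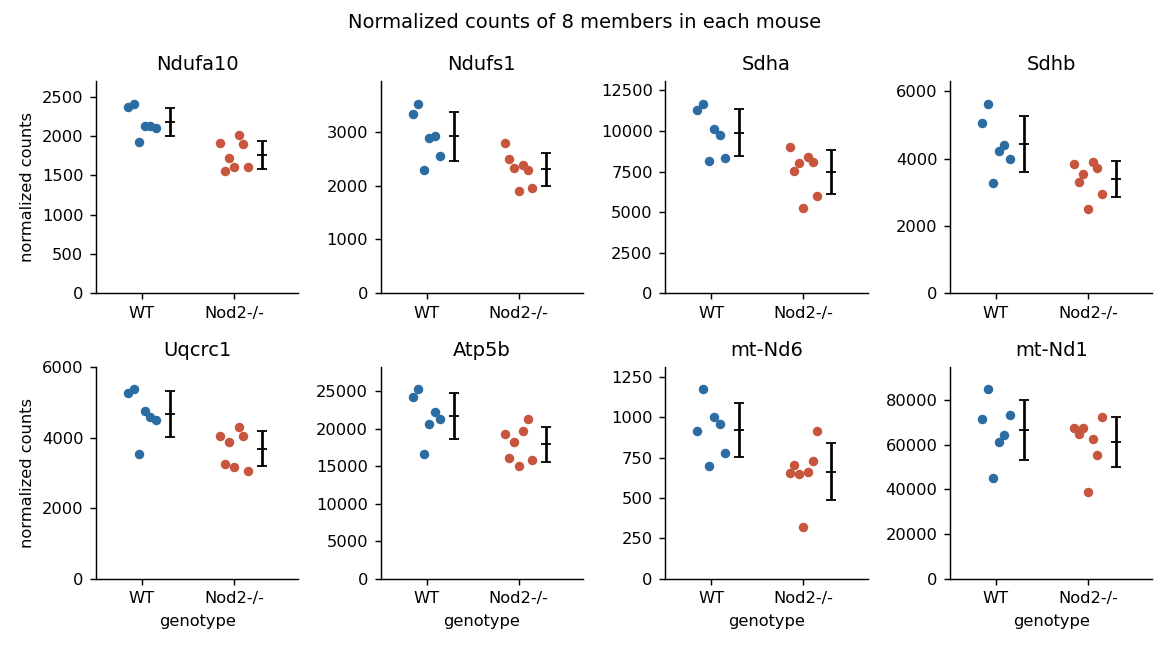
Normalized counts (y axis, starting at 0) of 8 members in each WT mouse (blue) and each Nod2-/- mouse (red), with the mean and SD in black. For Ndufs1, Sdhb, Uqcrc1 and mt-Nd6 all 7 Nod2-/- points lie below the WT median and the ranges overlap, while for mt-Nd1 the Nod2-/- range of 38960 to 72510 covers most of the WT range.

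Complex IV, cytochrome c oxidase, had 12 nuclear members tested, 9 of them below 0, with a median log2 fold change of -0.11 and 0 at an unadjusted p under 0.05. Cox5a, a subunit close to the catalytic core, lay at 0.02 ± 0.160 (SE) and Cox4i1, the ubiquitous form of subunit 4, at -0.01 ± 0.158, both with a sign that changed between settings. Complex V had 17 nuclear members, 16 below 0, with a median of -0.09. The 5 subunits of the F1 head, where ATP is made, had a median of -0.21 and all lay below 0. The catalytic beta subunit Atp5b had 16630, 21760 and 25240 normalized counts at the lowest, median and highest WT mouse and 15040, 18190 and 21240 in Nod2-/- mice, all below the WT median. Its log2 fold change was -0.28 ± 0.125 (SE; edgeR adjusted p = 0.204), and that of the alpha subunit Atp5a1 was -0.24 ± 0.124 (adjusted p = 0.263). The remaining F1 subunits were uneven, with Atp5c1 at -0.21 ± 0.130, Atp5d at -0.05 ± 0.168 and Atp5e at -0.01 ± 0.157. The 12 nuclear members outside the F1 head had a median of -0.07.

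Some subunits come in isoforms used by different tissues, and these livers showed the forms known from liver. Complexes were assigned by gene name, so Ndufa4 and Ndufa4l2 were counted under complex I. Levels between genes are given as CPM per kilobase of exon, with all annotated exons of a gene merged, so a gene with long rarely used exons reads low. Cox6a1 stood at 298 ± 56.7 in WT and 272 ± 49.5 in Nod2-/- mice (SD, n = 6 and n = 7) on this scale. Cox6a2, the heart and muscle form, had at most 2 counts in any mouse. Cox4i1 stood at 224 ± 39.1 and 223 ± 51.1, and Cox4i2, known from lung, had 1 to 8 counts. Cox8a stood at 336 ± 77.6 and 312 ± 74.6, against 0 to 7 counts for Cox8b and 0 counts in every mouse for Cox8c, which allows at most 3 counts per library. Cox7b stood at 163 ± 36.5 and 135 ± 13.9, and Cox7b2 had 0 counts in every mouse. Cox6b1 stood at 249 ± 35.3 and 229 ± 48.6, and Cox6b2 had 2 to 13 counts.

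The 6 members not tested were Cox4i2, Cox6a2, Cox6b2, Cox7b2, Cox8b and Cox8c, all minor isoforms, and 3 of them (Cox6a2, Cox7b2 and Cox8c) never exceeded 3 counts. A pair of further minor isoforms passed the filter and had the highest fitted fold changes of all members. Cox7a1, the muscle form of subunit 7a, was among the lowest members, with 6 to 34 counts (WT) and 10 to 65 counts (Nod2-/-). Its log2 fold change was 0.79 ± 0.425 (SE; edgeR adjusted p = 0.274), with Nod2-/- replicate 6 at 74.0 normalized counts and the next mouse at 33.4. Of the 5 skeletal muscle markers 4 were at or under 3 counts in every mouse. Ndufa4l2, a hypoxia-responsive relative of Ndufa4, had 8 to 31 counts and a log2 fold change of 0.39 ± 0.276 (adjusted p = 0.408). The main forms Cox7a2 and Ndufa4 lay at -0.06 ± 0.174 and -0.05 ± 0.166, and Cox7a2l, which takes part in supercomplexes, at 0.10 ± 0.115. Of the 3 genes for subunit c of the ATP synthase, which encode the same mature protein, Atp5g3 led with 186 ± 39.9 in WT mice, followed by Atp5g2 at 30.5 ± 4.55 and Atp5g1 at 21.4 ± 3.90. The last 2 are close on this scale, which rests on the merged exon lengths. None of these 3 genes had a fitted change beyond -0.09.

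**Figure D3:**
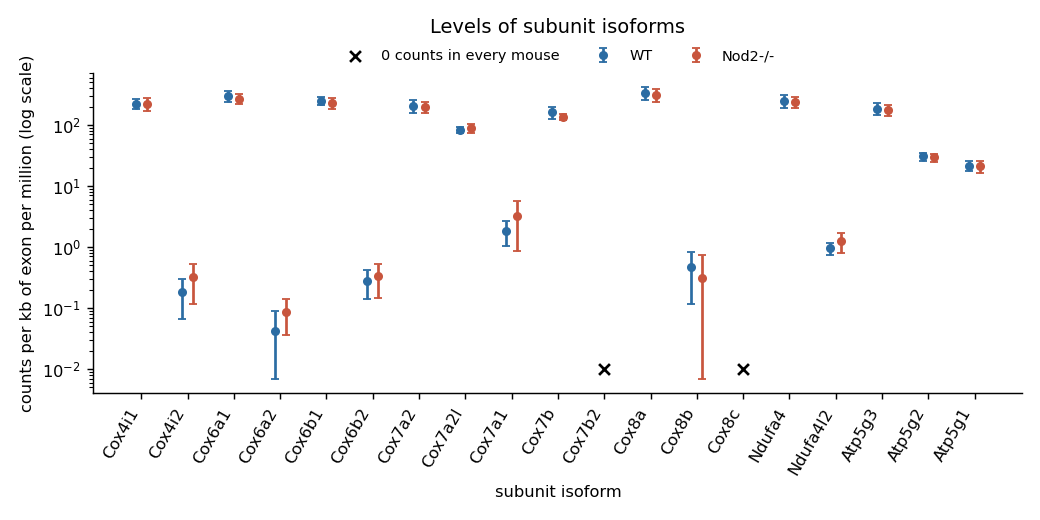
Level of each isoform (y axis, CPM per kilobase of exon, log scale) as mean ± SD over 6 WT (blue) and 7 Nod2-/- mice (red), with lower bars shortened where they would reach 0. Crosses mark genes with 0 counts in every mouse. The liver forms lie near or above 21, and the minor forms of complex IV and Ndufa4l2 lie below 4.

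The nuclear subunits followed the mouse more than the genotype. For each mouse the deviation of every member from its own mean over the 13 mice was taken on the log2 scale. The median deviation of the 80 nuclear members was -0.42 in WT replicate 3 and -0.33 in Nod2-/- replicate 2, and 0.35 in WT replicate 2 and 0.27 in Nod2-/- replicate 5. In WT replicate 3 all 80 were below their own mean and in Nod2-/- replicate 2 79 were, while in WT replicates 1, 2 and 6 only 3 of 80 were. The share of all tested genes below their own mean was 46.0% to 52.0% in every mouse. WT mice averaged 0.06 ± 0.27 (SD, n = 6) and Nod2-/- mice -0.05 ± 0.22 (SD, n = 7), so the difference between the groups, -0.10, was smaller than the spread within either.

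The complexes mostly moved together in this respect, complex II less closely than the others. In WT replicate 3 the median deviation was -0.42 for complex I, -0.25 for complex II, -0.42 for complex III, -0.48 for complex IV and -0.40 for complex V. In Nod2-/- replicate 5 the same values were 0.29, 0.13, 0.22, 0.35 and 0.24. Complex II stood apart in some mice. In Nod2-/- replicate 4 it was at -0.44, with the other complexes between -0.11 and -0.20. In Nod2-/- replicate 7 it was at -0.24, with the others between -0.06 and -0.14. In WT replicate 4 it was at 0.09, with the others between -0.03 and -0.07.

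**Figure D4:**
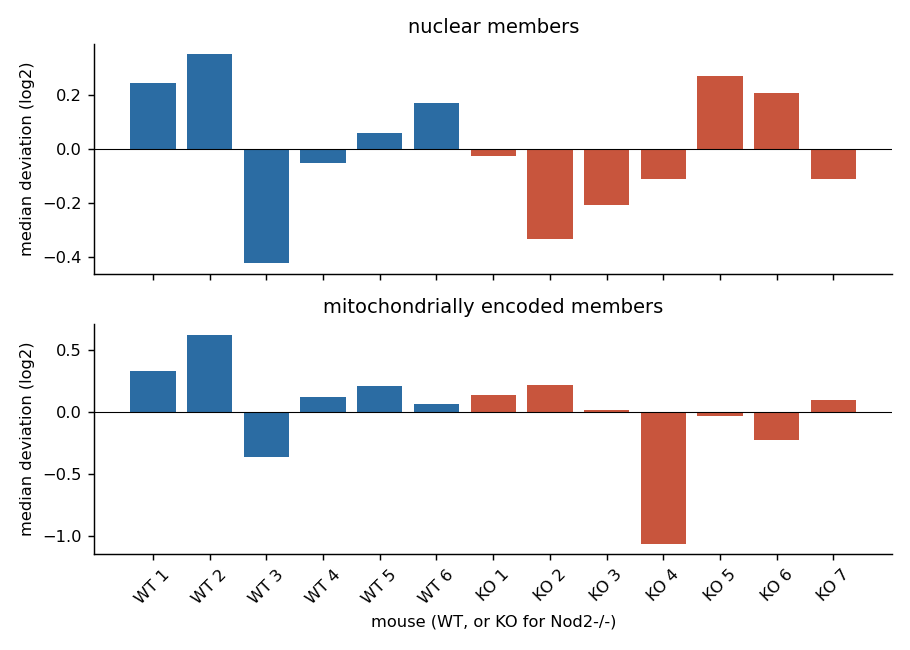
Median deviation from the mean over all 13 mice (y axis, log2) of the 80 nuclear (top) and 13 mitochondrially encoded members (bottom), with 1 bar per mouse, WT in blue and Nod2-/- in red. WT replicate 3 is low in both panels, and Nod2-/- replicate 4 is at -1.06 in the lower panel and -0.11 in the upper.

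Fold changes differed with gene length. The 26 nuclear members with the longest merged exons had a median log2 fold change of -0.18 and 24 lay below 0, against -0.10 and 20 for the 26 shortest. Over all tested genes the medians of the longest and shortest 4512 were -0.02 and 0.05. Those 2 sets were cut at other lengths, so the comparisons are not alike. The longest and shortest members had 2178 to 8086 and 419 to 1217 bases of exon. In the whole table the sets had 5601 to 123179 and 57 to 3007 bases. By mouse, the longest and shortest genes of the whole table deviated by 0.18 and -0.17 in WT replicate 3 and by -0.08 and 0.13 in Nod2-/- replicate 5. In Nod2-/- replicates 2 and 3, at nuclear deviations of -0.33 and -0.21, the same values were 0.11 and -0.10, and 0.08 and -0.05. In Nod2-/- replicates 4 and 7, both at a nuclear deviation of -0.11, they were -0.05 and 0.06, and -0.03 and 0.06. The part of length in the results for the subunits was not tested.

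The 13 mitochondrially encoded members took 3.07% to 4.97% of all counts in WT mice (mean 4.07% ± 0.65, SD, n = 6) and 1.67% to 4.24% in Nod2-/- mice (mean 3.44% ± 0.86, SD, n = 7). The 86 nuclear members together took 1.09% to 1.56% in WT and 1.11% to 1.60% in Nod2-/- mice. The groups overlapped in both shares. The log2 ratio of mitochondrial to nuclear subunit counts was 1.33 to 1.67 in WT mice, with an SD of 0.12, and 0.58 to 1.90 in Nod2-/- mice, with an SD of 0.46. The mean was 1.54 in WT and 1.36 in Nod2-/- mice, and the Nod2-/- mice lay on both sides of the WT range, with replicates 4, 5 and 6 below it at 0.58, 1.14 and 0.99 and replicate 2 above it at 1.90. The difference in this ratio, -0.18 with all mice, was -0.05 without Nod2-/- replicate 4, and that in the mitochondrial share went from -0.636 to -0.341 percentage points. The spread itself was not tested between the groups.

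The low end belonged mainly to a single mouse. In Nod2-/- replicate 4 the median deviation of the mitochondrial members was -1.06, the next lowest mouse was WT replicate 3 at -0.37, and 12 of the 13 members were below their own mean in each of these mice. Hepatocyte markers summed to 168000 CPM in Nod2-/- replicate 4, the highest of all mice. Erythroid markers summed to 925 there and to 306 to 523 in WT mice. In Nod2-/- replicate 7 they summed to 1150, and the mitochondrial deviation was 0.09. The part of these values in the low mitochondrial counts was not tested. Without Nod2-/- replicate 4 the median log2 fold change of the mitochondrial members was -0.18, from -0.30 with it.

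Single mitochondrial mRNAs showed the same overlap. mt-Nd6, a complex I subunit and the only member encoded on the other strand of the mitochondrial chromosome, had the lowest log2 fold change of all members. Its normalized counts were 697, 937 and 1173 at the lowest, median and highest WT mouse and 321, 664 and 917 in Nod2-/- mice, all below the WT median. The change was -0.48 ± 0.184 (SE; edgeR adjusted p = 0.147). Its end overlaps that of mt-Nd5 on the opposite strand, and whether strand was used in counting is not given in the sources used here. mt-Nd1, a core complex I subunit, had 45130, 67950 and 84770 normalized counts at the lowest, median and highest WT mouse and 38960, 64900 and 72510 in Nod2-/- mice. Its change of -0.12 ± 0.171 (edgeR adjusted p = 0.700) was smaller than its error. mt-Cytb, the membrane core of complex III, lay at -0.26 ± 0.222, and mt-Nd2, mt-Nd4 and mt-Nd5 at -0.30 ± 0.208, -0.29 ± 0.195 and -0.39 ± 0.234. mt-Co1, which holds the oxygen-binding site of complex IV, was at -0.38 ± 0.205 (edgeR adjusted p = 0.282), with 196700 to 356500 normalized counts in WT and 113000 to 246900 in Nod2-/- mice. mt-Atp8 lay at -0.42 ± 0.225 and mt-Atp6 at -0.35 ± 0.209 (edgeR adjusted p 0.274 and 0.320). The mitochondrial rRNAs mt-Rnr1 and mt-Rnr2 lay at -0.03 ± 0.211 and -0.15 ± 0.257.

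The counts of the mitochondrial mRNAs differed by orders of magnitude, and the near-empty ones were among those whose sequence also stands in annotated nuclear transcripts. mt-Co1 held 37.8% of all counts on mitochondrial members, and mt-Cytb followed. mt-Co2 had 10 to 26 counts in any mouse, mt-Nd3 25 to 75, mt-Co3 39 to 97 and mt-Nd4l 53 to 191, although Co2 and Co3 encode core subunits of the same enzyme as Co1. Each transcript was cut into all its windows of 43 bases, the length of 1 read, and each window was looked up in the transcripts of all other genes. All 642 windows of mt-Co2 occurred in another gene, and the shares were 99.87% for mt-Co3, 98.82% for mt-Nd4l and 98.04% for mt-Nd3. For mt-Nd1 and mt-Nd6 the share was 0%, for mt-Atp8 0.62% and for mt-Cytb 0.64%. mt-Co1 at 55.09% and mt-Nd4 at 62.43% lay between and kept high counts. mt-Atp6 was the exception at the other end, with 99.53% of windows shared and 2731 to 8509 counts.

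The start of mt-Co2 is shown with its copies to let the identity be read, 60 bases each from GENCODE release 21 of GRCm38, with capitals at bases that differ from mt-Co2. The mitochondrial stretch is chrM:7013-7072 on the plus strand. The copy in the pseudogene Gm28661, at chr1:24615506-24615565 on the minus strand, has 0 differences, and over all 681 aligned bases it is identical to mt-Co2. The copy in the pseudogene Gm13341, at chr2:22587903-22587962 on the minus strand, has 2.
mt-Co2: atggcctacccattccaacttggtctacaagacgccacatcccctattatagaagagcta
Gm28661: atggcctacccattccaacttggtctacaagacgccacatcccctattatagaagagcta
Gm13341: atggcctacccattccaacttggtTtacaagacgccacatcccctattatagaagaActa
A read from the first pair fits both places equally, and how the authors' counting treated such reads is not given in the sources used here. Gm28661 itself had 1 to 9 counts and Gm13341 223 to 544. The run of copies on chromosome 1, between positions 24611535 and 24616197, holds pseudogenes of mt-Co1, mt-Co2, mt-Atp6, mt-Co3, mt-Nd3, mt-Nd4l and mt-Nd4 in the order of the mitochondrial chromosome. The levels of mt-Co2, mt-Co3, mt-Nd3 and mt-Nd4l in these data were therefore not read against that of mt-Co1, and their fold changes rest on few reads. The 6 members with at most 10.55% of windows shared (mt-Nd1, mt-Nd2, mt-Nd5, mt-Nd6, mt-Cytb and mt-Atp8) were all below 0, with a median log2 fold change of -0.34. Of the nuclear members only Atp5l, Atp5o and Atp5h had over 50% of windows shared, and 38 of the 99 members had no shared window.

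**Figure D5:**
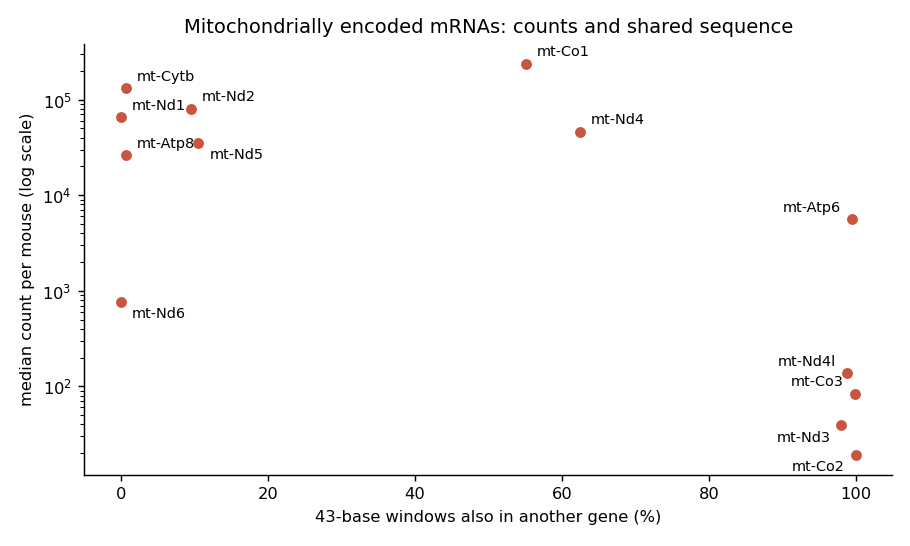
Median count per mouse (y axis, log scale) of each of the 13 mitochondrially encoded members against the percentage of its 43-base windows that also occur in another gene (x axis). The 4 members with the fewest counts, mt-Co2, mt-Nd3, mt-Co3 and mt-Nd4l, stand at 98.04% or more, where mt-Atp6 alone keeps high counts.

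Because the nuclear subunits moved together across the mice, their promoters were searched for motifs of factors known to act on mitochondrial genes. RefSeq windows of GRCm38.p6, from 250 bases before to 50 after a start site, were matched for 69 of the 86 nuclear members, 66 of them tested. The motifs were searched on both strands, as CCGGAAG for ETS factors such as GABPA, GCGCATGC for NRF1, AAGATGG for YY1, AAGGTCA for the estrogen-related receptors and GGGCGG for SP factors. The NRF1 motif nearly equals its own reverse complement, so that a single site can match on both strands. It occurred in 10 of the 66 members (15.2%) and in 5.4% of the 9714 tested coding genes with a window. The ETS motif occurred in 22.7% of members and 18.3% of tested genes, the YY1 motif in 15.2% and 7.34%, and the receptor motif in 12.1% and 3.27%. The SP motif went the other way, with 40.9% of members and 63.6% of tested genes. A match is a description of letters, and no binding was measured.

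The windows of 3 members picked from those with an unadjusted p under 0.05 are printed as examples, with every match in capitals. Sdha, Ndufs1 and Uqcrc2 had a lower edgeR p than Sdhb and are not shown. Ndufa10 (chr1:92473709-92474008, minus strand) holds 2 SP matches. Uqcrc1 (chr9:108936398-108936697, plus strand) holds 1 NRF1 site that matches on both strands. Sdhb (chr4:140961021-140961320, plus strand) holds 3 SP matches, 1 NRF1 match and 1 ETS match.
Ndufa10: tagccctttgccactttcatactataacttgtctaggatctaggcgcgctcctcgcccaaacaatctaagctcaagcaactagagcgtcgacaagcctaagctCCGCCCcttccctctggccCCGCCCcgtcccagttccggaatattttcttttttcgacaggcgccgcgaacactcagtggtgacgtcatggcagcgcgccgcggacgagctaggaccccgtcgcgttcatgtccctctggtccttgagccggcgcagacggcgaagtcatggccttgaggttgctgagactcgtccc
Uqcrc1: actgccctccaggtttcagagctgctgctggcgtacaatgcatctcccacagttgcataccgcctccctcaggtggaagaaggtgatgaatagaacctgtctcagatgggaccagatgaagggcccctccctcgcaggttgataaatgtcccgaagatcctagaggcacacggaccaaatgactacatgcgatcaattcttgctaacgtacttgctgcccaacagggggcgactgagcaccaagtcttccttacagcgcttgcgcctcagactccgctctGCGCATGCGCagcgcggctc
Sdhb: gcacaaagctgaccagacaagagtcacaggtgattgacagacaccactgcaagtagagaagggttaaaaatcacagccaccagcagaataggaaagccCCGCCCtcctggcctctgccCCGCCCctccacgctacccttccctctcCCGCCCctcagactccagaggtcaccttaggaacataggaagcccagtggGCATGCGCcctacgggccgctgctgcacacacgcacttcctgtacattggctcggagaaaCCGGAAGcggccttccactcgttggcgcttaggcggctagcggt
The 3 genes had log2 fold changes of -0.31, -0.34 and -0.39, and no motif occurred in all 3. As picked examples they do not describe the other members.

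The calls depended on the test and on a single WT mouse. DESeq2, the tool of the study, called 4 of 93 members lower (Ndufa10, Sdha, Uqcrc1 and Uqcrc2), or 4.3%, where it called 4.03% of all genes lower. Their DESeq2 adjusted p ran from 0.0122 for Ndufa10 to 0.0473 for Uqcrc2. limma's voomWithQualityWeights called 2 (Ndufa10 and Uqcrc1, limma adjusted p 0.0355 and 0.0473), or 2.15%, where it called 2.39% of all genes lower. Both shares were close to the background. Without WT replicate 3, the WT mouse with the lowest nuclear subunits, edgeR called 6 lower, or 6.45%, against 3.37% of all genes. These were Ndufa10, Uqcrc1, Ndufb3, Sdhb, Ndufs1 and Uqcrc2, with edgeR adjusted p between 0.0311 and 0.0421. Leaving out that mouse also raised the number of genes called in the whole table from 157 to 1156. Without WT replicate 3 and Nod2-/- replicates 4 and 7 together, a choice made after seeing the data, edgeR called 1 member, mt-Nd6 (adjusted p = 0.0337), and 0.564% of all genes lower. No alternative called a member higher.

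Genes around the respiratory chain leaned the same way. Their lists were chosen with earlier results of these data known and were read in the same libraries. They are thus not separate support for the subunit values. In the TCA cycle, which feeds NADH and succinate to complexes I and II, 12 of 13 enzymes lay below 0 with a median log2 fold change of -0.27, and 0 were called. At an unadjusted p under 0.05 there were 8 of the 13 lower and 0 higher, against 10.2% and 12.9% of all tested genes. Idh3b, of isocitrate dehydrogenase, and Suclg1, of succinyl-CoA ligase, lay at -0.49 ± 0.127 and -0.39 ± 0.105 (SE; edgeR adjusted p 0.0656 and 0.0663). Both were named after their values were seen.

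Of the ubiquinone synthesis genes, 11 of 13 lay below 0 with a median of -0.16, and 1 was called. Coq10b, a lipid-binding protein needed for ubiquinone function in the chain, had 1118, 1228 and 1595 normalized counts at the lowest, median and highest WT mouse. Nod2-/- mice had 603, 792 and 1055, all below every WT mouse. It fell by 0.61 ± 0.132 (SE) on the log2 scale, with an edgeR adjusted p of 0.0422. It was the only gene called in the 11 lists of genes around the chain, and the call was lost in 10 of the 13 fits that left out 1 mouse (edgeR adjusted p 0.0211 to 0.111).

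Among assembly factors, complex I had 15 of 16 below 0 (median -0.22), complex II 3 of 4 (-0.12), complex III 5 of 6 (-0.32) and complex IV 12 of 19 (-0.12), with 0 called. The complex V list, which holds the inhibitor Atpif1 beside assembly factors, had 3 of 4 below 0 (-0.13) and 0 called. Its gene above 0 was Atpif1. Ndufaf1, which builds an early intermediate of complex I, lay at -0.48 ± 0.115 (SE; edgeR adjusted p = 0.0565), and Atpif1, the inhibitor of the ATP synthase, at 0.51 ± 0.146 (adjusted p = 0.0783). Both were named after their values were seen. Mitochondrial ribosome genes had 57 of 77 below 0 with a median of -0.07, genes of mitochondrial DNA and RNA maintenance 16 of 19 with -0.15, and electron carriers and other inputs 11 of 15 with -0.07. Cycs, cytochrome c, lay at -0.22 ± 0.135 (edgeR adjusted p = 0.350).

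The regulators of mitochondrial biogenesis lay on both sides of 0. Of 20 genes 13 lay below 0 with a median of -0.14, and 0 were called. Ppargc1a, the coactivator PGC-1alpha, had 61.4, 126 and 155 normalized counts at the lowest, median and highest WT mouse and 102, 154 and 207 in Nod2-/- mice, a change of 0.39 ± 0.224 (SE; edgeR adjusted p = 0.308). Tfam, which packages mitochondrial DNA and helps start its transcription, lay at -0.10 ± 0.091 and Nrf1 at 0.09 ± 0.149. Esrra, an estrogen-related receptor, lay at 0.17 ± 0.104. Gabpa lay at -0.24 ± 0.121 (edgeR adjusted p = 0.243), and its start overlaps that of Atp5j, itself a subunit gene, on the other strand.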

How the data were processed

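Liver RNA of 6 WT and 7 Nod2-/- mice was sequenced as 43-base read pairs. Per the submitters' processing notes and the study's methods, reads were trimmed with Trimmomatic 0.33 and mapped with TopHat2 2.1.1 to GRCm38. The authors deposited raw counts per gene and mouse, without normalization. The counting program, its use of strand and its handling of reads with several matches are not given in the sources used here. The labels describe polyadenylated RNA and stranded libraries, while the study's methods speak of total RNA. The labels give 30 weeks for age and diet, and the study's methods give a slightly longer time on the diet. 1 entry without a gene was left out.

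Members were found by symbol and coding biotype in GENCODE release 21 of GRCm38, where 53360 of the 53465 genes were found. The rule matched 100 coding genes, of which 1 was absent from the table, and 13 non-coding genes that were not used. The members and the lists of surrounding genes were chosen with earlier results of these data known. Named genes were the mitochondrial members, members past 5% false discovery rate (0 passed), the 3 highest and 3 lowest fold changes, isoform sets, core subunits, members within 10 Mb of Nod2, the rRNAs, surrounding genes past 5% and 6 regulators and carriers. Other genes, among them Ndufa10, Uqcrc2, Ndufb3 and Ndufa9, were named after their values were seen.

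The edgeR 4.0.16 fit in R 4.3.3 covered the 13545 genes passing filterByExpr, with 99.9% of the counts (TMM, glmQLFit and glmQLFTest, two-sided, Benjamini-Hochberg at 0.05). The SE of a fold change is its size divided by the square root of F. A two-sided exact permutation test over the 1716 ways to split the mice was added for single genes, and 0.000583 is the smallest p it allows. Limits from 3 counts cover counting error only. Libraries of one genotype differed by more than counting error in all 36 pairs (chi-square 10.7 to 160 times its degrees of freedom). The alternatives were DESeq2 1.42.0, limma 3.58.1, other scalings and filters, the replicate number as a block and leaving out each mouse. The fits were tested on simulated data. Single values of some genes are not reported here.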

Additional observations from a re-analysis of the deposited data

Results flagged for a closer look

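For the summary measures and the named genes, 62 measures in all, each genotype was searched for a mouse that stood far from the others by Dixon's test, in which the gap to the nearest mouse is divided by the range of the group. Over the 124 groups examined, 6 gaps passed the 95% critical value (0.625 for 6 mice and 0.568 for 7), and chance alone passes about 1 in 20 groups.

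Of these 5 belonged to the mitochondrially encoded members in Nod2-/- replicate 4. Their share of counts there was 1.67%, with the next Nod2-/- mouse at 3.19%, and their median deviation was -1.06, with the next at -0.23. mt-Cytb had 57230 normalized counts, with the next Nod2-/- mouse at 110700. mt-Nd2 had 33540 and the next 64320, and mt-Nd4 had 23700 and the next 41770. The 5 values come from the same library and are not separate observations.

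The remaining one was Cox7a1 in Nod2-/- replicate 6, at 74.0 normalized counts with the next mouse at 33.4. Without that mouse its log2 fold change was 0.37 (edgeR adjusted p = 0.546), from 0.79 with it.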

How the results depend on the processing

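The medians of all members, the nuclear members and each complex stayed below 0 in all 23 alternatives, and that of the mitochondrial members in the 22 that keep their genes. They moved by less than the spread between mice. Leaving out 1 mouse at a time gave medians of -0.20 to -0.05 for the nuclear and -0.41 to -0.18 for the mitochondrial members, and -0.19 to -0.04, -0.35 to -0.20, -0.29 to -0.13, -0.21 to -0.04 and -0.18 to -0.02 for complexes I to V. With library totals complexes I and V were at -0.05 and -0.03. The number of members called lower was 0 with edgeR, 4 with DESeq2 and 2 with limma's voomWithQualityWeights, 0 to 6 without 1 mouse (6 without WT replicate 3), and 1 without WT replicate 3 and Nod2-/- replicates 4 and 7, a choice made after seeing the data. In the lists around the chain, 206 genes tested, 1 gene was called lower with edgeR (0.485%, against 0.509% of all genes), 19 with DESeq2 (9.22% against 4.03%), 13 with voomWithQualityWeights (6.31% against 2.39%), 0 to 28 without 1 mouse (28 without WT replicate 3, or 13.6% against 3.37%) and 2 without those 3 mice (0.971% against 0.564%). 1 was called higher with DESeq2, and 0 to 1 without 1 mouse. The cause of these differences was not tested.

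The replicate numbers do not pair the mice, since same-numbered mice correlated at -0.30 to 0.30 and 0 of 6 best with its own number. With the replicate block 0 members were called and 0 genes of the lists around the chain, the nuclear and mitochondrial medians were -0.10 and -0.33, and the genes called in the whole table fell to 35 from 157.

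Of 52 named genes tested, 41 kept their sign in every setting. The sign changed for 11 genes, whose main log2 fold changes ran from -0.15 for mt-Rnr2 to 0.10 for Cox7a2l. The median of all members, -0.12, lies within that range. With library totals and no composition factor, which moved the median of all genes to 0.06, Cox4i1 was at 0.047, Ndufa4 at 0.0051, Atp5g1 at 0.045, Atp5g2 at 0.00030 and mt-Rnr1 at 0.031. With the replicate block Cox4i1 was at 0.0066. With voomWithQualityWeights Cox5a was at -0.072, Ndufb7 at -0.037 and mt-Rnr1 at 0.0044, and with DESeq2 Cox5a was at -0.0013. Without the 3 mice Cox7a2l was at -0.0056, Cox5a at -0.060 and Ndufb7 at -0.064. Without 1 mouse the ranges were -0.065 to 0.20 for mt-Co2, -0.10 to 0.046 for Cox4i1, -0.18 to 0.012 for Cox7a2, -0.17 to 0.018 for Ndufa4, -0.11 to 0.051 for Atp5g1, -0.081 to 0.073 for Cox5a, -0.051 to 0.10 for Ndufb7, -0.16 to 0.10 for mt-Rnr1 and -0.32 to 0.012 for mt-Rnr2. The median SE was 0.14 for nuclear and 0.222 for mitochondrial members, which limits what 6 against 7 mice can show.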
